A study of Mus musculus with 10 samples.

Results

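The genes that encode the proteins of the cytosolic ribosome were described across RNA-seq libraries of embryonic mouse cortex, the dorsal part of the telencephalon, at day E12.5. Members were the protein-coding genes whose symbol is that of a large-subunit (Rpl), small-subunit (Rps) or stalk (Rplp) protein, or Rpsa, without pseudogenes and without the S6 kinases. The rule found 83 genes of the 56748 listed: 43 of the large subunit, 31 of the small subunit, 3 of the stalk and 6 paralogs (Rpl10l, Rpl22l1, Rpl39l, Rpl3l, Rpl7l1 and Rps27l). Another 6 symbols of that form (Rps4l, Rps12l1, Rpl6l, Rpl32l, Rps3a2 and Rps3a3) are annotated as pseudogenes and were not members.

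The study compared 5 libraries labelled Emx2 KO with 5 labelled WT, all from cortex at E12.5. The gene Emx2 encodes a homeodomain protein that patterns the dorsal telencephalon. The labels give neither the strain, the allele behind the knockout, the sex nor whether 1 embryo or several went into a library. Separate embryos are not stated for libraries of a genotype either, and a p-value here therefore reflects only the variation among the libraries, some of which may be technical. The values are raw read counts per gene, from which the CPM, the count of a gene scaled to the library's total, were computed.

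A ribosome is built from ribosomal RNAs and a large set of proteins in a small and a large subunit, which are assembled mainly in the nucleolus and finished in the cytoplasm. Ribosomal protein mRNAs are short, abundant and usually regulated together. Their transcripts start with a C followed by a run of pyrimidines, the terminal oligopyrimidine (TOP) motif, through which the mTOR pathway and the RNA-binding protein Larp1 control their translation. Mutations in several ribosomal protein genes disturb blood formation or growth of the brain. Counts of mRNA report the transcript level and not how much of it is translated.

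Many of these genes have a run of pyrimidines near the annotated start of transcription. Windows run from 40 bases before to 20 bases after that start. They are shown for the 3 members that passed the test below, for 3 abundant members and for a paralog. Sequences and starts are from RefSeq on GRCm38.p6, read 5′ to 3′ on the gene's strand, and capitals mark runs of at least 8 pyrimidines. Where a gene shown has more than 1 annotated start, each is given.
Rplp2 (stalk, chr7:141447611-141447670, plus strand): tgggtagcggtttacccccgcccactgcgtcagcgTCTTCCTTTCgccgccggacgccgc
Rps24 (small subunit, upstream start, chr14:24490638-24490697, plus strand): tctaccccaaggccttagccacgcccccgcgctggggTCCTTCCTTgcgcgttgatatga
Rps24 (small subunit, downstream start, chr14:24490713-24490772, plus strand): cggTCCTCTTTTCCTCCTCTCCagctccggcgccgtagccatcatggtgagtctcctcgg
Rpl36a (large subunit, chrX:134585614-134585673, plus strand): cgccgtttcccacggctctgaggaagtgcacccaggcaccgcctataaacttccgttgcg
Rpl4 (large subunit, chr9:64173347-64173406, plus strand): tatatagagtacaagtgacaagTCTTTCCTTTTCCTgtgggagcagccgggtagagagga
Rpl28 (large subunit, chr7:4792925-4792984, plus strand): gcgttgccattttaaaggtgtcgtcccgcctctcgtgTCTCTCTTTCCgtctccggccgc
Rps27 (small subunit, chr3:90213629-90213688, minus strand): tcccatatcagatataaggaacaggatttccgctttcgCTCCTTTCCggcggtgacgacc
Rps27l (paralog of Rps27, upstream start, chr9:66946046-66946105, plus strand): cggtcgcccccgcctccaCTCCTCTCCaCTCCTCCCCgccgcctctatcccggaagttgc
Rps27l (paralog of Rps27, downstream start, chr9:66946373-66946432, plus strand): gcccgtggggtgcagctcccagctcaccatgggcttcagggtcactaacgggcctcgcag

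A pyrimidine run stood close to the annotated start in most of these windows. Of the 83 members, 63 were in the RefSeq table, with 75 annotated starts. A run of at least 8 pyrimidines on the gene's strand lay within 50 bases of the start in 58 of the 75 (77.3%), against 35.74% of all 32851 starts in the table. The letters CTTTCC on the gene's strand were there in 29.3% of member starts and 4.69% of all starts, and the longer CTCTTTCC, which contains CTTTCC, in 12% and 0.447%. In the whole window from 250 bases before to 50 after the start, CCGGAAGT on either strand was present in 16% of member starts, 3.89% of all starts and 7.10% of the 15148 starts of genes that passed the filter on low counts. The TATA sequence TATAAA on the gene's strand was present in 8%, 8.32% and 4.40%. Over the starts of genes that passed the filter, the share with a pyrimidine run was 32.8%, that with CTTTCC 4.33% and that with CTCTTTCC 0.456%. The windows of Rplp2, Rpl4, Rpl28 and Rps27 each hold 1 run, as do both windows of Rps24, with runs of 9 and 19 bases. Of the windows of Rps27l the upstream one holds 2 runs and the downstream one 0, and that of Rpl36a holds 0. A match is a stretch of letters and was not compared with any measurement of transcription starts.

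Ribosomal protein transcripts were at high and similar levels in both genotypes. Levels of different genes were compared as CPM per kb of transcript, using 1 annotated transcript per gene. The highest were Rplp1, a stalk protein, at 927 ± 189 in KO and 951 ± 170 in WT (SD, n = 5), Rpl41, the shortest ribosomal protein, at 879 ± 164 and 953 ± 174, and Rpl8, a core protein of the large subunit, at 915 ± 97.1 and 869 ± 76.8. The SDs of these 3 genes overlap, and the order of members was not tested. Next came Rps15 at 731 ± 91.9 and 737 ± 97.3, and Rps27 at 708 ± 86.6 and 735 ± 71.3, both of the small subunit. The order of members depends on the transcript chosen. That of Rps20 has 3706 bases, against a median of 729 over members. Rps20 stood at 393 CPM in KO and 397 in WT but at only 106 and 107 per kb. Of 80 members that passed the filter on low counts, 69 lay within 4-fold of the median level, 9 lay more than 4-fold under it and 2 more than 4-fold above it. The lowest were Rpl23a at 4.39 CPM per kb in KO and 4.63 in WT and Rpl24 at 5.38 and 5.39. Rpl23a has 14 pseudogenes named with -ps, whose reads came to 134% of its own CPM. Rpl24 has 0 of that form, and near copies under other symbols were not counted for either gene. The sources used here do not give how the authors counted reads that match several copies. Whether these transcripts are scarce or their reads went to copies was not tested. Across members, the levels per kb in KO and WT had a rank correlation of 0.994. This describes 80 genes measured in the same libraries.

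The 3 members not tested are paralogs with tissue-restricted expression. Rpl10l, a retrogene used in spermatogenesis, had 0 counts in any of the 10 libraries. A count of 0 allows up to 0.0269 CPM over the KO libraries together and 0.0289 CPM over the WT libraries, for counting error only. Rpl39l, known from testis, had 5 counts in KO and 3 in WT, and Rpl3l, the paralog of Rpl3 in heart and skeletal muscle, had 6 and 5.

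Few ribosomal protein genes differed between the genotypes. With edgeR's quasi-likelihood test and an adjusted p under 0.05 over all genes, 1 member rose in KO (Rplp2), 2 fell (Rpl36a and Rps24) and 77 did not pass. This is 3.75% of the 80 tested, against 22.2% of all 18163 genes tested (12.9% higher and 9.33% lower). At an unadjusted p under 0.05 the members gave 4 of 80, against 33.8% of all genes. The groups of libraries did not overlap for 1 member (Rpl36a, KO below WT), against 16.7% of all genes (7.06% with KO below WT). Under upper-quartile scaling 0 members rose and 3 fell, and with totals alone 0 rose and 4 fell. The calls over all genes shifted alike, to 10.5% higher and 12.4% lower and to 9.83% and 13.6%. The 3 calls were small, between 0.17 and 0.27 on the log2 scale, and none passed at the stricter threshold of 0.01.

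The size of the differences was bounded for most members. The 95% interval of the fold change lay within 1.5-fold in either direction for 75 of 80 members and within 1.25-fold for 60. The 5 members whose interval reached beyond 1.5-fold were Rpl23a, Rpl26, Rpl29, Rps2 and Rps27l. The median log2 fold change was -0.04 over members and -0.01 over all genes, and 58 members (72.5%) were below 0 against 51.1% of all genes. The median size of the log2 fold change, ignoring sign, was 0.066 over members and 0.164 over all genes. CPM are relative to each library's total, so a change of all transcripts together could not be measured.

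**Figure D1:**
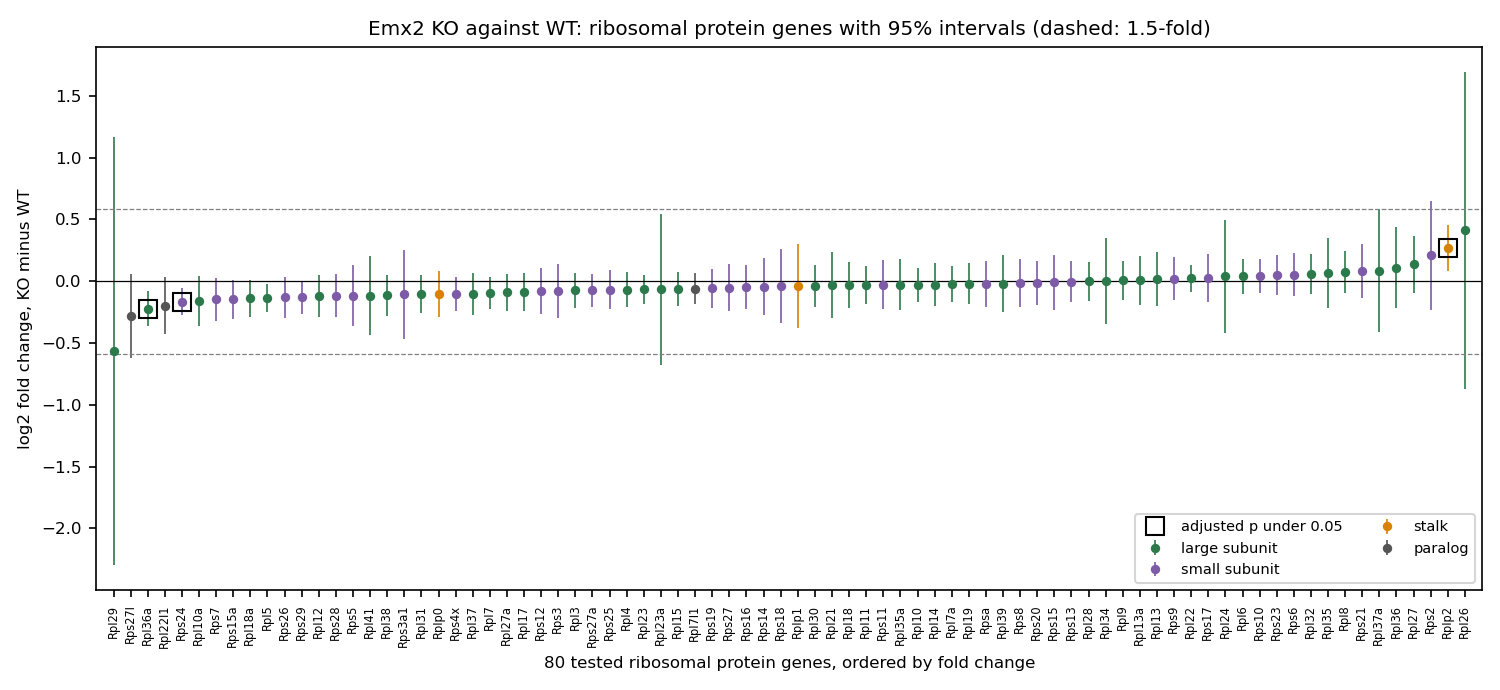
The log2 fold change (KO minus WT, vertical axis) of the 80 tested ribosomal protein genes, ordered along the horizontal axis, with 95% intervals, coloured by subunit and with squares around genes with an adjusted p under 0.05. Most points lie close to 0 and within the dashed 1.5-fold lines, Rpl29 and Rpl26 have the widest intervals, and the squares mark Rpl36a, Rps24 and Rplp2.

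Ribosomal protein transcripts varied together between libraries of the same genotype. Total counts ran from 9720840 to 35674113 per library. The libraries fell into 5 large (KO 1, KO 2, KO 4, WT 3, WT 4) and 5 small ones, and the median member had 2227 counts in the smallest library. The sample titles end in 1 of 3 codes whose meaning the labels do not give, and within a code KO and WT libraries were of different size classes, so code and size cannot be told apart from genotype within such a subset. Members took 2.02%, 1.68%, 1.602%, 1.79% and 1.72% of the counts in KO 1 to KO 5 and 1.84%, 1.75%, 1.81%, 1.75% and 2.19% in WT 1 to WT 5. The means were 1.76% ± 0.158 in KO and 1.87% ± 0.182 in WT (SD, n = 5), and the groups overlapped widely. Without WT 5 the WT mean was 1.79%, and without KO 1 the KO mean was 1.70%.

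Nearly the whole family was high together in 1 library of each genotype. WT 5 was the highest WT library for 68 of 80 members (85%), against 23.1% of all genes tested, and KO 1 the highest KO library for 64 (80%), against 23.8%. KO 3 was the lowest KO library for 56 members (70%), against 22.9% of all genes tested. Relative to each member's mean over the 10 libraries, the median member stood at 0.24 in WT 5, 0.13 in KO 1 and -0.15 in KO 3 on the log2 scale. Both subunits took part: the large-subunit genes took 1.07% and the small-subunit genes 0.924% of the counts in WT 5, against 0.871% to 0.909% and 0.723% to 0.775% in the other WT libraries. Rack1, a small-subunit protein whose symbol is outside the rule, was also highest in WT 5, at 655 CPM against 501 to 533 in the other WT libraries.

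Blood markers and several other gene sets were highest in the same libraries. The 10 genes of the blood list, globins and other erythroid genes, took 0.762% of counts in KO 1 against 0.237% to 0.435% in the other KO libraries, and 0.579% in WT 5 against 0.237% to 0.422% in the other WT libraries. Of the 10 tested, 0 passed the edgeR test between genotypes at an adjusted p under 0.05 and 1 had an unadjusted p under 0.05. The microglia list took 0.00605% in KO 1 and 0.00667% in WT 5, the mitochondrial ribosomal proteins 0.224% and 0.230% and the nuclear genes of oxidative phosphorylation 0.394% and 0.398%, each the highest share of its genotype. Other lists did not follow this order in both libraries. The meningeal and endothelial lists were the highest of KO in KO 1, at 0.0792% and 0.0310%. In WT 5 they were the lowest of WT, at 0.0575% and 0.0225%. Neuronal markers took 0.521% of counts in KO 3, the highest of the 10 libraries, and 0.282% in WT 1, the lowest. The part of these cell types in the library levels was not tested. In bulk tissue, fewer cells of a type and less RNA per cell cannot be told apart.

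**Figure D2:**
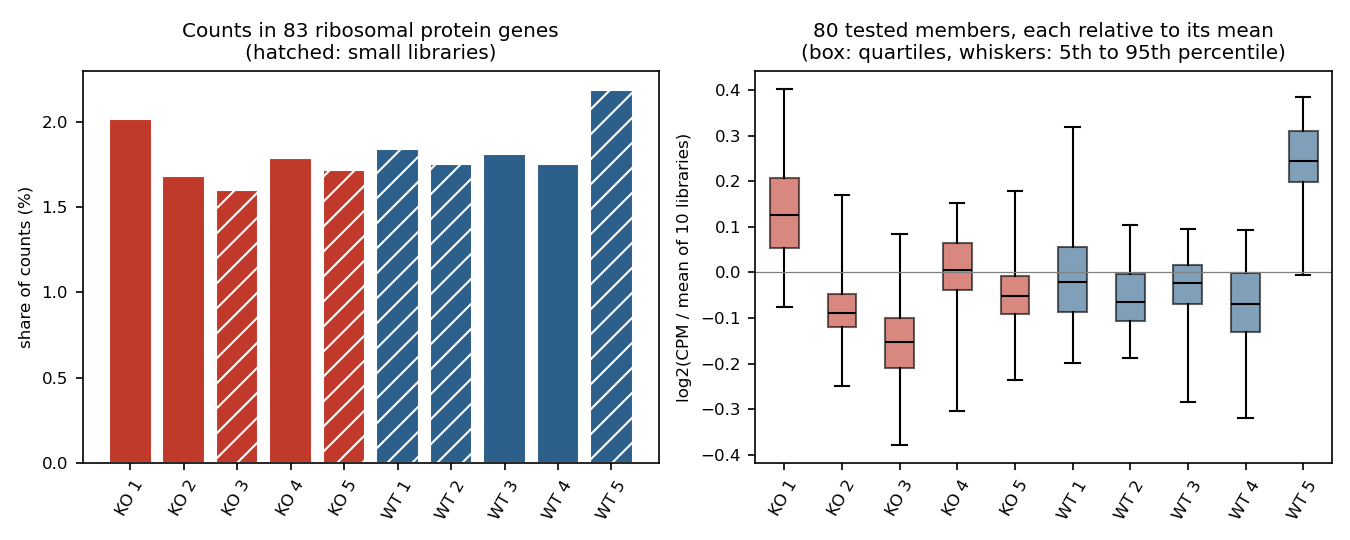
Left, the share of each library's counts in the 83 members (percent, bars from 0, hatched for small libraries); right, the log2 of CPM over the member's mean of the 10 libraries for the 80 tested members (box at the quartiles, whiskers from the 5th to the 95th percentile). The boxes of WT 5 and KO 1 stand above 0 and that of KO 3 below it, while KO (red) and WT (blue) overlap.

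The sign of the family's median difference depended on which libraries were compared. In the large libraries alone the median log2 fold change was 0.06, with 58 members above 0 and 22 below. In the small ones alone it was -0.17, with 8 above and 72 below. With title code 241022 alone it was 0.08 and with 14922 alone -0.07. Without WT 5 the median was 0.02, and 46 of 80 members were above 0. Without KO 1 it was -0.10, and 70 were below 0. In the 8 libraries whose codes hold both genotypes in pairs, the interaction of genotype with code passed for 0 of 80 members. Of all 18431 genes tested 1.53% passed (edgeR interaction, adjusted p under 0.05). In these libraries KO was large and WT small in code 241022, and the reverse in 14922. The interaction therefore cannot be told apart from a difference between large and small libraries. At an unadjusted p under 0.05 it gave 9 of 80 members, against 6.53% of all genes. Without the filter on low counts it gave 10 of 80 members at an adjusted p under 0.05, against 2.53% of 36269 genes. The interaction of genotype with size class over the 10 libraries gave 0 of 80 members at an adjusted p under 0.05, against 0.0385% of all genes. The large KO and small WT libraries had codes 241022 or 31022 and the others 14922. This interaction therefore cannot be told apart from a difference between codes. At an unadjusted p under 0.05 the interaction with size class gave 15 of 80 members, against 9.7% of all genes.

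Other checks of the libraries touched all genes and not the family alone. Emx2 itself was lower but present in KO, at 94.6 to 146 CPM against 175 to 207 CPM in WT. Markers of dorsal telencephalon were present in each library, and 5 of 7 rose in KO. Of the markers of radial glia 7 of 9 rose, of intermediate progenitors 4 of 6 and of neurons 4 of 10, and 0 of these fell. Of meningeal markers 2 of 8 fell and 0 rose, and 0 of 8 endothelial and 0 of 8 microglial markers passed, with 3 and 2 at an unadjusted p under 0.05 in edgeR. The part of these shifts in the members' values was not tested. Choroid plexus markers fell (6 of 8) and subpallial markers rose (6 of 9), and their shares ran from 0.00566% to 0.00915% of counts in KO against 0.0258% to 0.0311% in WT, and from 0.0189% to 0.0645% against 0.00999% to 0.0289%. Ttr was the choroid plexus gene that nearly vanished, at 1.04 to 4.85 CPM in KO and 97.2 to 139 CPM in WT. Xist was high in 1 KO library (KO 1) and 3 WT libraries (WT 1, WT 2 and WT 4), so the sex of the embryos was not balanced between genotypes.

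The stalk is a flexible arm of the large subunit, made of Rplp0 with Rplp1 and Rplp2, which brings elongation factors to the ribosome. Rplp2 stood at 188, 181, 153, 199.8 and 158 CPM in KO 1 to KO 5 and at 136, 146, 153, 129 and 168 CPM in WT 1 to WT 5. The 3 large KO libraries lay above each WT library, whereas the 2 small KO libraries lay within the WT range. Rplp2 rose by a log2 fold change of 0.27 ± 0.09 (SE, edgeR adjusted p = 0.0439). Of 10 fits that each left out 1 library the call held in 3 and was lost without KO 1, KO 2, KO 4, WT 1, WT 2, WT 3 or WT 4 (edgeR adjusted p from 0.0215 to 0.113). It was also lost with Y-linked expression as a covariate, an alternative added after the data were seen (0.24, adjusted p = 0.102). In the large libraries alone Rplp2 stood 0.43 higher on the log2 scale, and in the small ones alone 0.05 higher. Its partner Rplp1 stood at 462 ± 94.3 against 475 ± 84.7 CPM (log2 fold change -0.04) and the base of the stalk, Rplp0, at 762 ± 79.7 against 818 ± 98.2 CPM (-0.10), and neither passed. Whether Rplp2 differed from its partners was not tested.

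Rpl36a, a large-subunit protein near the site from which tRNA leaves the ribosome, was lower in KO. It stood at 89.3, 77.6, 82.2, 85.6 and 85.8 CPM in KO 1 to KO 5 and at 94.0, 92.9, 96.8, 91.5 and 116 CPM in WT 1 to WT 5. The groups did not overlap, though the highest KO library (KO 1) and the lowest WT library (WT 4) were close. The log2 fold change was -0.22 ± 0.07 (edgeR adjusted p = 0.0293). Without WT 5 the gene fell by 0.15, still past the threshold, and the call was lost without KO 2, KO 3 or KO 4. Rpl36a lies on the X chromosome, and with the Y-linked covariate it fell by 0.25 and still passed. The 3 other X-linked members did not pass: Rpl10 at -0.03, Rpl39 at -0.02 and Rps4x at -0.10.

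Rps24, a small-subunit protein needed for processing of the 18S ribosomal RNA and mutated in some patients with Diamond-Blackfan anaemia, was also lower. It stood at 203, 181, 178, 190.3 and 192 CPM in KO 1 to KO 5 and at 206, 199, 205, 215 and 234 CPM in WT 1 to WT 5. Of the KO libraries only KO 1, the library with the highest share of ribosomal protein counts in KO, lay above the lowest WT library. The log2 fold change was -0.17 ± 0.05 (edgeR adjusted p = 0.0323). In 5 of 10 fits without 1 library the call was lost (without KO 2, KO 3, KO 4, WT 4 or WT 5), with log2 fold changes between -0.20 and -0.13 over the 10 fits. It was also lost with the Y-linked covariate (edgeR adjusted p = 0.0640).

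Of the other large-subunit proteins, Rpl5 came closest to the threshold. Rpl5 binds the 5S ribosomal RNA together with Rpl11, and this complex can hold back Mdm2, the ligase that degrades p53. It stood at 106, 100.2, 92.7, 110.2 and 109 CPM in KO 1 to KO 5 and at 121, 112, 109, 108 and 119 CPM in WT 1 to WT 5. The groups overlapped, and the log2 fold change was -0.14 ± 0.05 (edgeR adjusted p = 0.0907). The gene passed when libraries were scaled by total counts (-0.18) or by the upper quartile (-0.17). Over the 43 large-subunit members 0 rose and 1 fell, with a median log2 fold change of -0.03. Over the 31 small-subunit members 0 rose and 1 fell, with a median of -0.05. Rpsa, a small-subunit protein also known as the laminin receptor, stood at 385 ± 32.7 CPM in KO and 391 ± 52.1 in WT (log2 fold change -0.02).

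**Figure D3:**
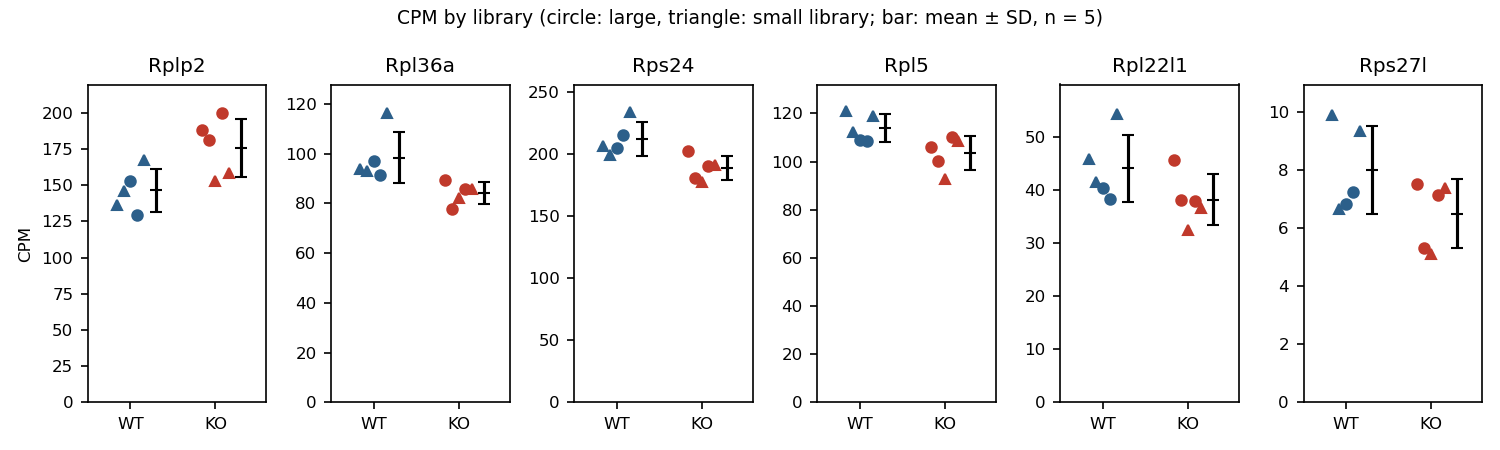
CPM (vertical axis, from 0) of 6 ribosomal protein genes in WT (blue) and KO (red), 1 point per library, with circles for large and triangles for small libraries and bars at the mean ± SD (n = 5). Rplp2 is higher in the large KO libraries, the KO points of Rpl36a lie below its WT points, and the other 4 genes overlap between genotypes.

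Of the 3 expressed paralogs 0 passed the test, by an unadjusted p under 0.05 as well. Rpl22l1, whose splicing and level its partner Rpl22 represses, stood at 45.7, 38.1, 32.4, 37.9 and 36.5 CPM in KO 1 to KO 5 and at 45.8, 41.5, 40.3, 38.3 and 54.3 CPM in WT 1 to WT 5. The groups overlapped (log2 fold change -0.20 ± 0.11, edgeR adjusted p = 0.217), and Rpl22 itself stood at 195 ± 10.6 against 193 ± 12.3 CPM (0.02). Rps27l, a paralog of Rps27 that is a known p53 target, stood at 7.55, 5.32, 5.12, 7.16 and 7.41 CPM in KO 1 to KO 5 and at 9.91, 6.68, 6.84, 7.25 and 9.36 CPM in WT 1 to WT 5. Its groups overlapped as well (-0.28 ± 0.16, adjusted p = 0.241), and per kb it stood at 13.05 in KO and 16.05 in WT, against 708 and 735 for Rps27. Rpl7l1, a protein of large-subunit assembly, stood at 110 ± 5.42 against 114 ± 9.75 CPM (-0.06). Its partner Rpl7 stood at 515 ± 38.4 against 550.5 ± 37.1 CPM (-0.10), Rpl3 at 221 ± 20.8 against 233 ± 12.8 CPM (-0.07) and Rpl10 at 297 ± 19.6 against 303 ± 27.6 CPM (-0.03). None of these passed.

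A few members varied far more between libraries than between genotypes. They were chosen after their values were seen. Over the 80 tested members the highest library stood at a median of 1.39 times the lowest, and 6 members (Rpl23a, Rpl24, Rpl26, Rpl29, Rpl37a and Rps2) reached at least 2 times. Rpl29, a large-subunit protein, stood at 9.48, 7.92 and 8.84 CPM in KO 1, KO 2 and KO 4 but at 44.5 and 49.0 in KO 3 and KO 5. In WT it stood at 9.83 and 10.2 CPM in WT 3 and WT 5 but at 47.5, 49.0 and 55.1 in WT 1, WT 2 and WT 4. The libraries thus fell into a low and a high set of 5 each that both held KO and WT, and the genotype difference of -0.57 ± 0.76 did not pass. Rpl26, which in other settings promotes translation of p53 mRNA, stood at 4.17, 2.29 and 3.25 CPM in KO 4, WT 4 and WT 5 and at 13.2 to 17.9 CPM in the other 7 libraries. Here too both genotypes were on both sides (log2 fold change 0.41 ± 0.57).

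Near copies of members switched between libraries in the same stepwise way. Rps2-ps13 stood at 58.1 to 76.9 CPM in KO 2, KO 4, KO 5, WT 1 and WT 4 and at 0.436 to 1.64 CPM in the other 5 libraries, while Rps2 stood at 371 to 819 CPM. Rps3a3, an annotated pseudogene of Rps3a1, stood at 7.18 CPM in KO 2 and 11.97 in WT 4 and at 93.7 to 117 CPM elsewhere. Rps3a1 was highest in just those 2 libraries, at 249 and 245 CPM. The sum of both varied less, by 1.38 times between the lowest and the highest library, against 1.67 times for Rps3a1 and 16.3 times for Rps3a3. Likewise Rpl34 and Rpl34-ps1 varied by 1.62 and 2.83 times and their sum by 1.38 times. The sum did not steady Rps2 as much, with 2.21 times for the gene and 2.01 times with Rps2-ps13. The cause of these steps was not tested, and levels of members with expressed near copies are uncertain to that extent.

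**Figure D4:**
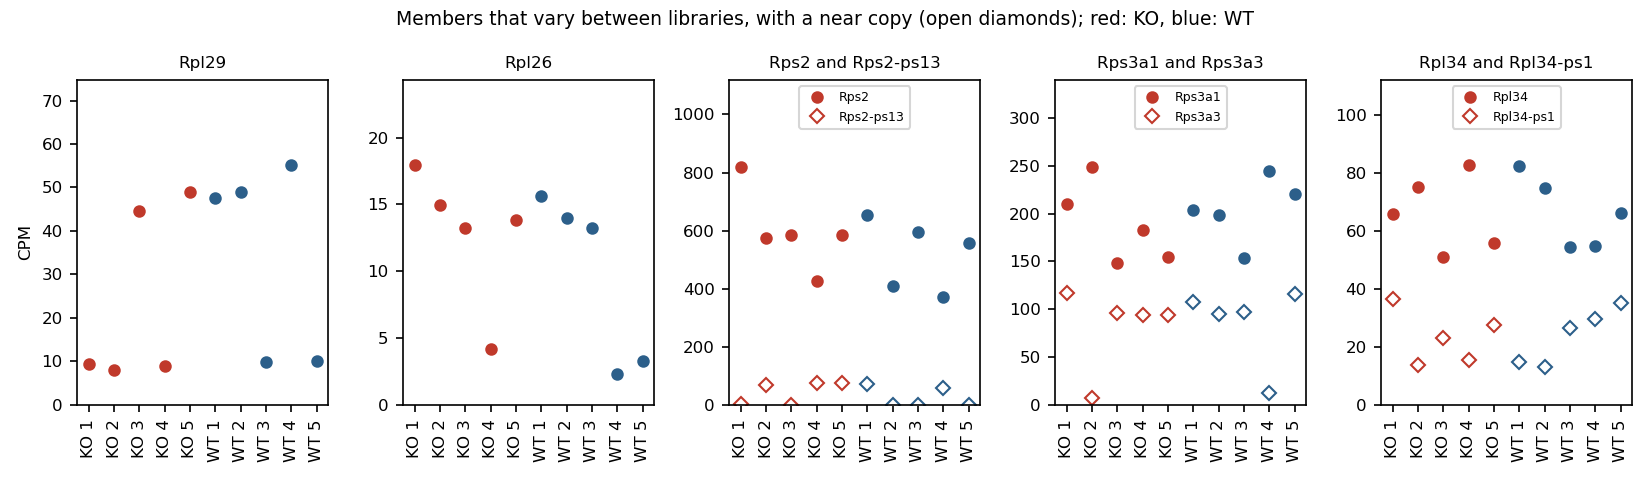
CPM (vertical axis, from 0) in each of the 10 libraries for 5 members (filled circles), 3 of them with a near copy (open diamonds), in KO (red) and WT (blue). Rpl29 and Rpl26 take a low or a high level in libraries of both genotypes, and Rps3a1 is highest in KO 2 and WT 4, where Rps3a3 is lowest.

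Of 300 pseudogenes named as a ribosomal protein followed by -ps, 92 passed the filter. Against 22.2% of all genes tested, 0 of them rose and 1 fell (1.09%). That was Rps18-ps3, at 1.12 ± 0.398 CPM in KO and 2.40 ± 1.17 in WT (log2 fold change -1.02 ± 0.34, edgeR adjusted p = 0.0457), and its libraries overlapped. Among the 59 with a mean of at least 1 CPM, 15 were higher in each large than in each small library and 8 were lower. The same was true of 0 and 1 of the 80 members. Such counts are not given here over all genes, so whether they are particular to pseudogenes cannot be read from them. Reads of these 300 took 0.0320% to 0.0457% of the counts and so hardly moved the members' share. Pseudogenes under other symbols, such as Rps3a3 at 7.18 to 117 CPM, are not in that share.

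Genes that act in making ribosomes included several that passed. In each list below the counts stand beside the 22.2% of all genes that passed, and the lists were not compared with each other by a test. The RNA polymerase I list (12 tested) held 2 that rose, Taf1c (log2 fold change 0.20) and Ubtf (0.14), and 1 that fell, Taf1d (-0.20). All 3 encode factors that load the polymerase on ribosomal DNA. Of 12 nucleolar and small nucleolar RNP proteins 0 rose and 4 fell, with a median of -0.10. Npm1, the histone-binding chaperone of the nucleolus, went from 446 ± 12.1 to 392.1 ± 16.1 CPM (-0.18 ± 0.04, edgeR adjusted p = 0.00460). Nop58, a core protein of the particles that methylate ribosomal RNA, and Dkc1, the pseudouridine synthase, each fell by 0.24, without overlap between the groups.

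Assembly factors moved in both directions. Of 37 small-subunit assembly factors 4 rose and 8 fell (median -0.04). Utp6, of the processome that cuts the precursor RNA, stood at 88.3 ± 3.14 CPM in KO and 112 ± 2.50 in WT (-0.34 on the log2 scale, edgeR adjusted p = 5.39e-05), Utp14a fell by 0.25 and Nol6 rose by 0.22. Of 41 large-subunit assembly factors 3 rose and 6 fell (median -0.04). Pelp1 rose by 0.41 and Mdn1, the ATPase that removes assembly factors, fell by 0.31. Both act on precursors of the large subunit. Wdr12 fell by 0.31. Of 5 chaperones that escort new ribosomal proteins 0 passed at an adjusted p under 0.05 in edgeR and 1 had an unadjusted p under 0.05 (Bccip, -0.13, adjusted p = 0.0872).

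Translation factors were mixed as well. Of 13 whose mRNAs carry a TOP motif 1 rose and 1 fell, both subunits of initiation factor 3: Eif3f went from 156 ± 19.2 to 203 ± 5.30 CPM (0.38 ± 0.07, edgeR adjusted p = 0.00266) and Eif3e from 26.5 ± 1.07 to 21.4 ± 2.05 CPM (-0.32 ± 0.07, adjusted p = 0.00695). Of 23 other initiation factors 4 rose and 2 fell, among them Eif1 (0.28), which guards the choice of start codon, the scaffold Eif4g1 (0.18) and the helicase helper Eif4h (0.19), which all rose.

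Regulators of ribosomal protein expression had the largest share of calls among the ribosome and translation lists described here. Of 24 genes of the MYC network, mTOR and the Larp proteins, 10 rose and 2 fell, which is 50% of the list, with a median log2 fold change of 0.15. Mycl, a MYC family member, went from 102 ± 2.71 to 151 ± 10.8 CPM (0.57 ± 0.05, edgeR adjusted p = 1.29e-05). Mnt, a repressor of MYC targets, rose by 0.36 and Eif4ebp2, which blocks initiation until mTOR phosphorylates it, by 0.45. Others were named after their values were seen. Larp1, which binds TOP mRNAs, stood at 214 to 225 CPM in KO and 176 to 193 CPM in WT (0.24), the mTOR partner Rptor rose by 0.27 and the mTOR antagonist Tsc2 by 0.25. The genes that rose include both activators and repressors. Myc itself stood at 18.3 to 22.0 CPM in KO and 13.1 to 18.2 CPM in WT. Mycn, the MYC family gene named for neuroblastoma, stood at 140 to 171 CPM in KO and 134 to 179 CPM in WT.

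Genes listed for nucleolar stress and p53 were mostly lower where they passed. Unassembled ribosomal proteins can trigger the p53 response. The list also holds an inhibitor of p53, Mdm4, so its counts do not measure that response. Of 13 tested 1 rose and 4 fell. Cdkn1a, the cell-cycle inhibitor p21, stood at 16.1, 10.3, 13.0, 10.4 and 10.04 CPM in KO 1 to KO 5 and at 32.9, 23.4, 25.6, 24.7 and 31.3 CPM in WT 1 to WT 5. Each KO library lay below each WT library (log2 fold change -1.19 ± 0.15, edgeR adjusted p = 0.000198). Eda2r, a receptor induced by p53, fell by 1.42 and Mdm4, an inhibitor of p53, by 0.19 on the log2 scale. Of 6 host genes of small nucleolar RNAs 0 passed, with 3 at an unadjusted p under 0.05 and Snhg12 at -0.28 (adjusted p = 0.0692).

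Few genes of the mitochondrial ribosome passed. Of 77 tested 2 rose (2.60%), Mrpl43 (0.32) and Mrps26 (0.21), and 0 fell, with a median log2 fold change of 0.00 and 12 at an unadjusted p under 0.05. Of 75 nuclear genes of oxidative phosphorylation 4 rose and 1 fell (6.67%), with Uqcrc1 at 0.26, Atp5d at 0.23 and Uqcrfs1 at 0.17. Of the 13 protein genes of the mitochondrial genome 0 passed, 5 had an unadjusted p under 0.05 and the 13 fold changes were each below 0 (median -0.12).

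**Figure D5:**
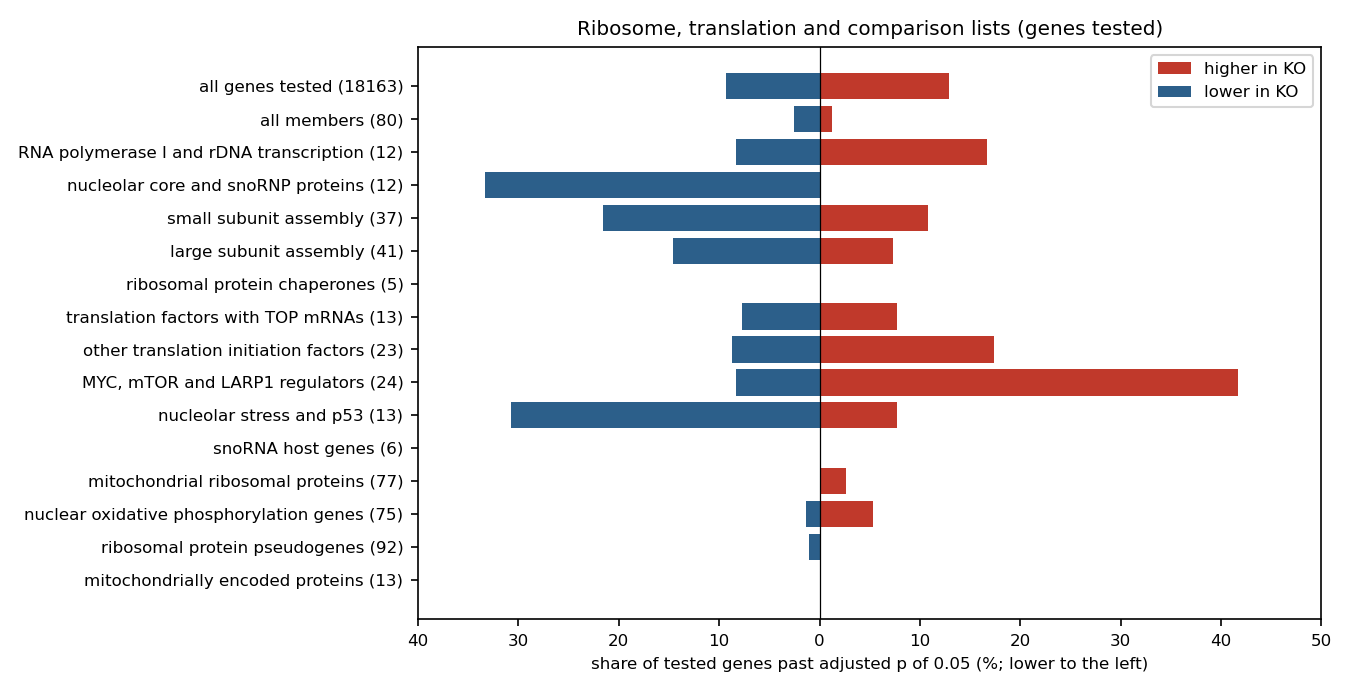
Share of tested genes with an edgeR adjusted p under 0.05 (percent), higher in KO to the right and lower to the left, for all genes, the ribosomal protein members and the lists of related genes, with the number tested in brackets. The bars of the members, the mitochondrial ribosomal proteins and the pseudogenes are short beside the bar of all genes, and the longest bar to the right is that of the MYC, mTOR and LARP1 list.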

How the data were processed

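The data were RNA-seq counts of 10 libraries of E12.5 mouse cortex, 5 Emx2 KO and 5 WT, grouped by the labels' genotype. The authors deposited raw counts for each Ensembl identifier as whole numbers, without normalization. The submitters' processing notes name featureCounts 1.6.3-p1, STAR 2.7.8a and bcl2fastq 2.20 as tools, and GRCm39 and rn6 as builds. Strand setting, annotation release and the handling of reads with several matches are not given in the sources used here, so reads of near-identical copies, antisense or overlapping genes may be shared. Symbols came from a name table (52073 of 56748 identifiers matched), and biotypes and lengths from the GENCODE annotation of GRCm38 (52125 matched).

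Low genes were removed by filterByExpr (minimum count 10), and totals were scaled by TMM. Genotype was the only term of a two-sided quasi-likelihood F test with robust dispersion (edgeR 4.0.16, R 4.3.3), with Benjamini-Hochberg adjustment over the 18163 genes tested. CPM were computed from TMM-scaled totals. The procedure was tested on simulated data. An interaction of genotype with title code was fitted in 8 libraries. Other scalings, other filters, DESeq2 1.42.0, limma-voom (limma 3.58.1), blocks for title code and size class, subsets of libraries and fits without each library served as alternatives. Totals ran from 9720840 to 35674113 counts per library, and the standard errors reflect the spread between libraries as well as the counts.

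The members and lists were chosen with earlier results of these data known. Named members were those past the threshold, the 5 with the highest level per length, the 3 with the smallest p in each direction, the paralog pairs, the stalk and Rpsa. From each list up to 3 genes past the threshold with the smallest p were named, or 1 where none passed. Exceptions are stated beside their values. Promoter windows came from RefSeq. KO and WT libraries of the same title code had a mean residual correlation of -0.10 over 9 pairs, against 0.06 over 16 pairs of different codes. Each pair of the same code joined a large and a small library, so code and size cannot be told apart here. Pairs of different codes that joined a large and a small library (KO 4 with WT 1 or WT 2, KO 1 or KO 2 with WT 5) ran from -0.20 to -0.14.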

Additional observations from a re-analysis of the deposited data

Results flagged for a closer look

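Among 5 libraries of a genotype, a library was set apart where its gap to the nearest other library, divided by the range of the group, exceeded 0.710. Chance sets apart a library in about 5% of such groups. Of 50 groups of named members 7 did so, and over all 80 tested members 30 of 160 did, 27 of them with WT 5 as the highest library. The groups share the same libraries and the members vary together, so these are not independent events to set against 5%. The share of counts in ribosomal protein genes in WT gave 0.796, with 2.19% in WT 5 and 1.84% in the next library.

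The next 6 genes had WT 5 highest. Rpsa gave 0.906, with 484 CPM in WT 5 against 374 in the next WT library. Rps4x gave 0.792 (516 against 443 CPM) and Rpl36a 0.787 (116 against 96.8 CPM). Rplp0 gave 0.777 (991 against 802 CPM), Rpl8 gave 0.763 (853 against 727 CPM) and Rpl27 gave 0.743 (43.4 against 32.8 CPM). In KO, Rpl41 gave 0.804, with 509.9 CPM in KO 1 against 369 in the next library. WT 5 is the smallest library, at 9720840 counts, and KO 1 is among the 5 large ones, at 30902451. What sets these libraries apart was not tested.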

How the results depend on the processing

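Counts of members past the threshold were the results that moved. Against 1 higher and 2 lower, the number higher was 0 under upper-quartile scaling, total-count scaling, no filter, size class as a block, title code 241022 alone, small libraries alone, a threshold of 0.01 and the Y-linked covariate (added after the data were seen), and 2 in the large libraries alone. The number lower was 4 with total counts, 1 each with title code 241022, the large libraries, the small libraries or pseudogene reads added to their member (also added later), and 0 at 0.01. Without 1 library, the number higher ran from 0 to 2 and the number lower from 0 to 4. The members' median log2 fold change ran from -0.10 to 0.02 when 1 library was left out, above 0 only without WT 5, and moved to -0.17 in the small libraries alone. No filter raised the members called for the interaction of genotype with title code from 0 to 10 (917 of 36269 genes). The causes were not tested. With the title code as a replicate block, 1 member rose and 2 fell (median -0.04). DESeq2 and limma-voom also gave 1 and 2. Replicate numbers follow accession order and pair nothing. No named gene reversed past the threshold. Upper-quartile and total-count scaling moved the median of all genes to -0.04 and -0.05. Members with low counts (23 counts at least in a library) and those with expressed near copies are the least certain.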
